A study of Mus musculus with 24 samples.

Results

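The transcriptional response of mouse cortical neurons to 12 h of brain-derived neurotrophic factor (BDNF), given without any other agent, was measured on 6 of the 24 arrays of the series. The arrays were taken by their titles, 3 from cultures given BDNF at 50 ng per ml for 12 h (BDNF_12h) and 3 from cultures given the solvent DMSO for 12 h (DMSO_12h), and all 18193 genes that the array annotation names were described. The cells were E18 primary cortical neurons kept in culture for 1 week, from which total RNA was hybridised to Affymetrix mouse expression arrays. For comparison, the series also held BDNF_2h and DMSO_2h, treated in the same way for 2 h, and BDNF_IBET858_12h and IBET858_12h, in which IBET858 at 1 µM, an inhibitor of the BET proteins that bind acetylated histones, was present with and without BDNF, each with 3 arrays. The labels name no strain, and whether the 3 arrays of a group stem from separate cultures is not stated, so the spread between arrays behind each p-value may be technical.

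BDNF is a secreted growth factor that binds the receptor tyrosine kinase TrkB, the product of Ntrk2. The activated receptor signals through the Ras and MAP kinase cascade, through PI3 kinase and Akt, and through phospholipase C. In cortical neurons these pathways switch on immediate-early genes, first transcription factors such as Fos and Egr1, then effectors that act at synapses, in secretion and in growth of neurites.

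The values were log2 intensities that had been centred for each probe set, so that 0 is the median over the 24 arrays. They show differences between arrays and not how abundant a transcript was. The 6 arrays lay close to their groups, with a standard deviation around the group mean between 0.0767 and 0.106 log2 units. DMSO_12h replicate 1 had the lowest mean of the spiked-in poly-A controls of all 24 arrays (-0.502, against -0.135 to 0.038 on the other 5 arrays). In bulk RNA, more RNA per cell and more cells of a type cannot be told apart.

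At 12 h, 7463 of the 18193 genes tested (41.0%) were called, that is, they had an adjusted p under 0.05 in limma with Benjamini-Hochberg adjustment over all genes. Of these, 3067 (16.9% of the genes tested) were higher with BDNF and 4396 (24.2%) were lower. More genes fell than rose. Leaving out predicted and unnamed genes and those with overlapping arrays, the 15 highest log2 fold changes lay between 3.06 and 4.9. The 15 lowest lay between -2.32 and -1.76. Past 1.5-fold there were 830 genes higher (4.56%) and 1126 lower (6.19%). The median log2 fold change of all genes was -0.012. In 9469 genes (52.0%) the values of the BDNF_12h arrays did not overlap those of the DMSO_12h arrays. All changes below are BDNF_12h minus DMSO_12h in log2 units followed where given by ± the standard error from the fit (3 arrays in each group), unless another pair of groups is named. In each gene whose BDNF_12h and DMSO_12h values are given array by array below, the arrays of the groups did not overlap.

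**Figure D1:**
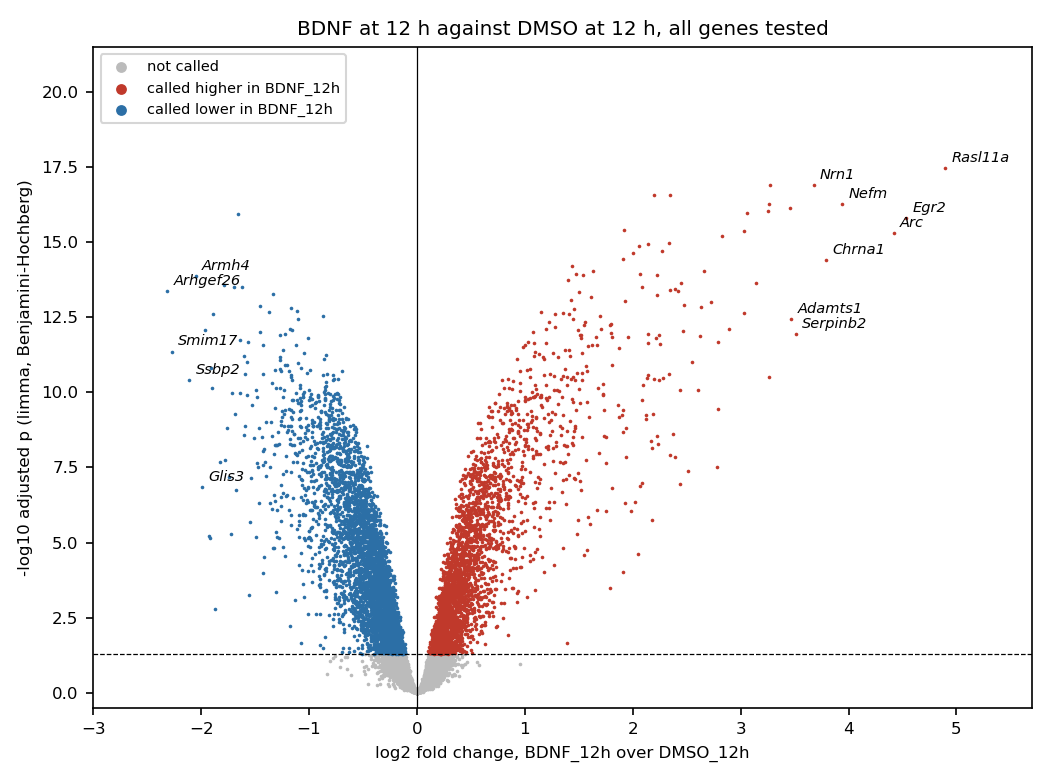
Each point is a gene, with its log2 fold change between BDNF_12h and DMSO_12h on the x axis and the negative log10 of its limma adjusted p on the y axis. The dashed line marks an adjusted p of 0.05. Called genes reach 4.9 on the right (Rasl11a) and -2.32 on the left (Arhgef26).

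Activity-induced genes were nearly all higher with BDNF. Of 32 activity-induced transcription factors, 29 were higher and none was lower, with a median of 0.98. Of 39 activity-induced effectors, 35 were higher and 1 was lower, with a median of 1.20. The members and lists were chosen with results of these data known, so these counts describe the response and carry no test of their own. Each list count at 12 h is to be read beside the 16.9% higher and 24.2% lower among all genes.

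Among the transcription factors, the zinc-finger gene Egr2 had the highest change. Its log2 values were 1.38, 1.54 and 1.66 in the BDNF_12h arrays, against -3.48, -2.78 and -2.76 in the DMSO_12h arrays. The groups lay far apart, and the difference of 4.54 ± 0.13 (adjusted p = 1.57e-16) was a 23.2-fold increase. Egr1 of the same family rose by 3.06 ± 0.085 (adjusted p = 1.07e-16), Egr4 by 1.1 and Egr3 by 1.03. Nab2, a corepressor that binds the EGR proteins and is itself one of their targets, rose by 2.24 ± 0.14 (adjusted p = 4.01e-11). The orphan nuclear receptor gene Nr4a2 had 1.18, 1.19 and 1.08 with BDNF_12h and -1.12, -1.0 and -1.03 with DMSO_12h. It rose by 2.19 ± 0.055 (adjusted p = 2.71e-17), and its probe sets ranged from 0.144 to 3.72.

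The AP-1 subunits, which pair as FOS and JUN proteins, were higher by unequal amounts. Fosb rose by 1.865, Fosl1 by 1.8, Fosl2 by 1.59 and Junb by 1.0. Fos itself had -0.34, -0.41 and -0.42 with BDNF_12h and -1.35, -1.02 and -0.955 with DMSO_12h, a rise of 0.72 ± 0.073 (adjusted p = 6.57e-08). Jun rose by 0.42 and Jund by 0.2. The neuronal factor Npas4, known for its response to calcium entry, rose by 0.79. The members that did not pass the test were Bhlhe40 (-0.097), Srf (0.072) and Maff (0.285).

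The sequence before the Egr2 start is shown because it holds, within a short stretch, motifs that are textbook targets of pathways below TrkB. The CArG box is bound by serum response factor, and TGACG is the core of the cyclic AMP response element, whose full form TGACGTCA is bound by CREB. Windows of 250 bases before annotated gene starts came from RefSeq on GRCm38.p6, and where a gene had several starts the first window along the chromosome that held the motifs is given. Letters run 5′ to 3′ on the strand of the gene, and capitals mark TGACG on either strand in the first 3 sequences, the CArG box in Egr2 and TGACGTCA, which overlaps TGACG, in Dusp1. The Egr2 window lies at chr10:67537619-67537868 on the plus strand, that of the Ras-family GTPase gene Rasl11a at chr5:146844821-146845070 on the plus strand, and that of the MAP kinase phosphatase gene Dusp1 at chr17:26508473-26508722 on the minus strand.
Egr2: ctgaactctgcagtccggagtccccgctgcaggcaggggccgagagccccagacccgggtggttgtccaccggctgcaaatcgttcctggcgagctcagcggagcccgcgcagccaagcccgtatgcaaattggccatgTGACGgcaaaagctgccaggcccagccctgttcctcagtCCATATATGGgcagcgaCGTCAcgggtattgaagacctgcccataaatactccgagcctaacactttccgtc
Rasl11a: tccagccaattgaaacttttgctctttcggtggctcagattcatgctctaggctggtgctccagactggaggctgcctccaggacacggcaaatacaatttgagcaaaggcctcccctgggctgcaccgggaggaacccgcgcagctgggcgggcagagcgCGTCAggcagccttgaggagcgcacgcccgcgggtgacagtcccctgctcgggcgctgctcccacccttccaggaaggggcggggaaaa
Dusp1: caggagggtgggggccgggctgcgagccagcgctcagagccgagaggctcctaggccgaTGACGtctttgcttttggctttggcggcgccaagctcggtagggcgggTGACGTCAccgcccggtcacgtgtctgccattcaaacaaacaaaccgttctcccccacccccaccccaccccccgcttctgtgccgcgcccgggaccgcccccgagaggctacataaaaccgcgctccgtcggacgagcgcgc
Of the genes tested, 14452 had a window, and TGACG was found on either strand in 25.9% of them, TGACGTCA in 2.5% and the CArG box in 1.43%. Among the 23 activity-induced transcription factors with a window, 17 held TGACG, 1 held TGACGTCA and 2 held the CArG box. Of 645 genes called higher past 1.5-fold with a window, 34.6% held TGACG, and of 926 called lower, 24.9% did. A match is a description of letters in this window and not a measured site.

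Among the effectors, Rasl11a had the highest change of all 18193 genes. Its log2 values were 3.995, 3.92 and 4.135 with BDNF_12h, against -1.0, -0.68 and -0.96 with DMSO_12h, a difference of 4.9 ± 0.1 or 29.8-fold (adjusted p = 3.32e-18). Arc, whose protein controls the removal of AMPA receptors from synapses, had 1.12, 1.26 and 1.47 with BDNF_12h and -3.12, -3.22 and -3.06 with DMSO_12h. It rose by 4.42 ± 0.14 or 21.4-fold (adjusted p = 5.11e-16). Nrn1, which encodes a membrane-anchored protein that promotes growth of neurites, had 2.74, 2.69 and 2.765 with BDNF_12h and -1.075, -0.92 and -0.84 with DMSO_12h. It rose by 3.68 ± 0.087 (adjusted p = 1.24e-17). In all 3 genes the arrays of the groups were separated by more than 3 log2 units.

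Further effectors also rose. The neuronal pentraxins, which gather AMPA receptors at excitatory synapses, rose by 3.46 ± 0.093 (Nptx1, adjusted p = 7.4e-17) and 3.26 ± 0.086 (Nptx2, adjusted p = 5.42e-17). Adamts1, a metalloprotease that cuts proteoglycans, rose by 3.47 ± 0.16 (adjusted p = 3.59e-13), and Serpinb2, an inhibitor of plasminogen activators, by 3.51 ± 0.17 (adjusted p = 1.13e-12). Plat, the tissue plasminogen activator that Serpinb2 inhibits, was higher by 1.16. Ptgs2, the inducible cyclooxygenase, had 1.47, 1.42 and 1.36 with BDNF_12h and -1.43, -0.825 and -0.66 with DMSO_12h, and rose by 2.39 ± 0.22 (adjusted p = 1.39e-08). The calcium-channel regulator Rem2 was the effector that fell, by 0.24 (adjusted p = 0.0277), and no effector was called lower without BDNF_12h replicate 2 or 3 or DMSO_12h replicate 2 or 3, or with the arrays shifted to a median of 0.

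Feedback inhibitors of signalling, among them those of the MAP kinase cascade, were higher more often than all genes. Of 28 feedback regulators, 14 were higher (50.0%, against 16.9% of all genes), with a median of 0.227. Another 5 were lower (17.9%, against 24.2% of all genes). The phosphatase Dusp4 had 0.8, 0.86 and 1.01 with BDNF_12h and -1.69, -1.43 and -1.54 with DMSO_12h, and rose by 2.44 ± 0.16 (adjusted p = 8.56e-11). The related phosphatases Dusp1 (1.75 ± 0.215, adjusted p = 8.73e-07), Dusp6 (1.7) and Dusp5 (1.51) also rose. So did the Ras pathway inhibitors Spry2 (2.17 ± 0.18, adjusted p = 4.18e-09), Spred3 (2.02 ± 0.24, adjusted p = 4.64e-07), Spred1 (1.18) and Spry4 (1.14). In contrast Spry1 fell by 0.63, Dusp8 by 0.44, and the cytokine signalling suppressors Socs2 and Cish by 0.495 and 0.33.

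**Figure D2:**
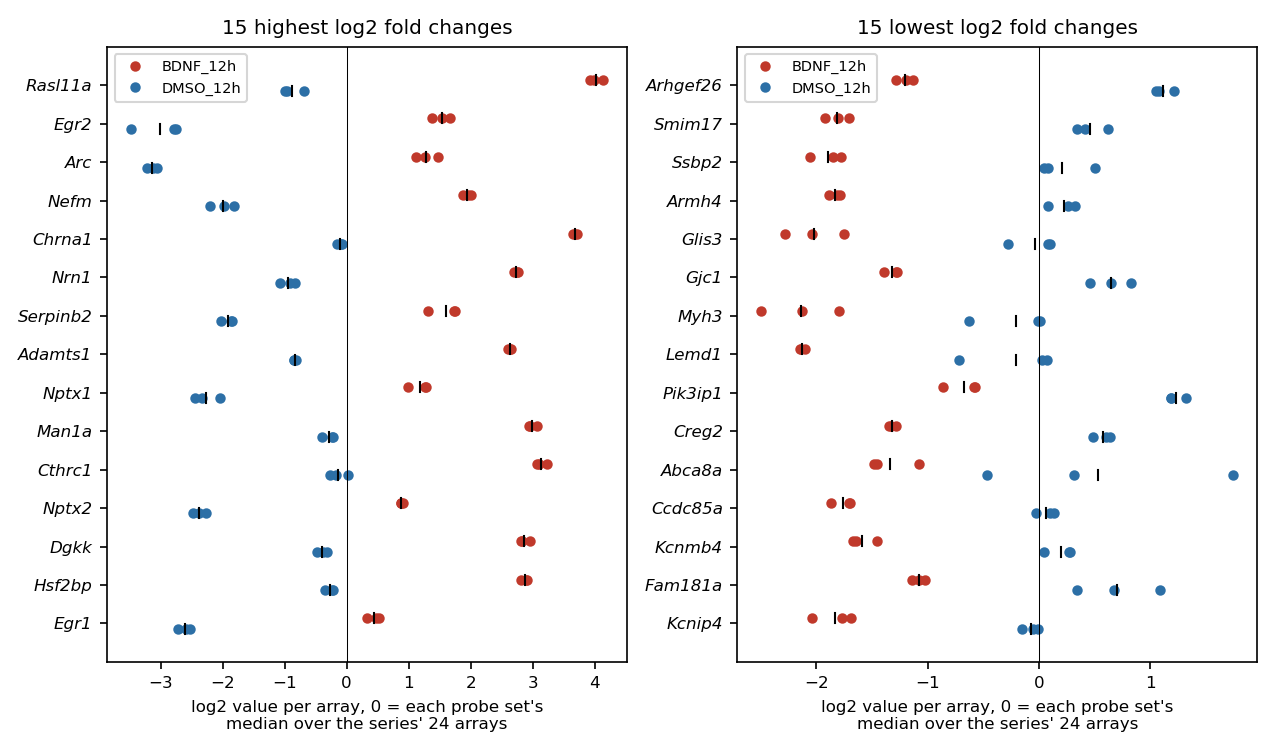
Log2 values of each array for the 15 genes with the highest (left) and the 15 with the lowest (right) change. BDNF_12h is in red above DMSO_12h in blue, with a tick at each group mean, and 0 is the median over the 24 arrays. Predicted and unnamed genes and genes with overlapping arrays were left out. The groups are separated in all 30 genes, and the DMSO_12h arrays of Abca8a spread from -0.46 to 1.75.

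In the neurotrophin system Bdnf, some sorting receptors and receptors for related factors were higher, while Ntrk2 was not called. Of 20 genes, 8 were higher and 1 was lower, with a median of 0.119. Bdnf had 0.85, 0.67 and 0.64 with BDNF_12h, against -0.505, 0.031 and 0.093 with DMSO_12h. It rose by 0.845 ± 0.26 (adjusted p = 0.0124), and without DMSO_12h replicate 1, the lowest array, the difference was 0.66 with an adjusted p of 0.081. Ntrk2 differed by -0.078 ± 0.055 (95% interval -0.19 to 0.04, adjusted p = 0.3) as the mean of 8 probe sets, of which single ones were called from -0.375 to 0.459. Ntrk3, the receptor for neurotrophin-3, had 1.12, 1.19 and 1.22 with BDNF_12h and -0.12, -0.15 and -0.14 with DMSO_12h. It rose by 1.32 ± 0.086 (adjusted p = 9.1e-11), and its 8 probe sets ranged from 0.061 to 2.09.

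Receptors for the related GDNF family rose as well. Gfra1, the binding subunit for GDNF, had 2.61, 2.6 and 2.705 with BDNF_12h and -0.3, -0.14 and -0.13 with DMSO_12h, and rose by 2.83 ± 0.088 or 7.1-fold (adjusted p = 6.33e-16). Gfra2 rose by 0.54, while Ret, the kinase subunit both share, was at 0.15 and not called. The sorting receptor Sorcs3 rose by 1.49 ± 0.15 (adjusted p = 4.79e-08), Sort1 by 0.48, and Furin, a protease that cuts proneurotrophins, by 0.49. Among adaptors, Shc3 rose by 1.34 ± 0.082 (adjusted p = 3.57e-11), and Frs3, which links Trk receptors to Ras, was the member that fell, by 0.82.

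Many neuropeptide genes rose, and so did part of the machinery that packs them. Of 31 neuropeptide genes, 15 were higher and 1 (Tac2, -0.37) was lower, with a median of 0.197. Pnoc, the precursor of nociceptin, had 2.31, 2.43 and 2.46 with BDNF_12h and -0.24, -0.24 and -0.21 with DMSO_12h, and rose by 2.63 ± 0.13 or 6.18-fold (adjusted p = 1.32e-12). Neurotensin (Nts) rose by 2.52 ± 0.25 (adjusted p = 4.3e-08), PACAP (Adcyap1) by 2.05 ± 0.325 (adjusted p = 2.32e-05) and corticotropin-releasing hormone (Crh) by 1.91 ± 0.155 (adjusted p = 2.12e-09). Npy had 0.42, 0.39 and 0.25 with BDNF_12h and -0.56, -0.067 and -0.26 with DMSO_12h, and rose by 0.65 ± 0.16 (adjusted p = 0.00209). Galanin (Gal, 1.75), tachykinin 1 (Tac1, 1.45) and Vip (0.77) were higher, and somatostatin (Sst) was not called at -0.074.

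Of 22 genes of dense-core vesicles, the organelles that store peptides, 8 were higher and 6 were lower. Vgf, whose product is a granin cut into peptides, had 0.6, 0.615 and 0.55 with BDNF_12h and -2.3, -1.56 and -1.69 with DMSO_12h, and rose by 2.44 ± 0.26 (adjusted p = 1.09e-07). The calcium-binding protein gene Cgref1 (1.54 ± 0.058, adjusted p = 1.28e-14), the vesicle protein genes Sv2c (1.48 ± 0.11, adjusted p = 3.99e-10) and Ptprn (0.86 ± 0.089, adjusted p = 8.18e-08), the granin Scg2 (0.77) and the prohormone convertase Pcsk1 (0.74) rose. Other granins went the other way, Chgb falling by 0.45 and Scg3 by 0.32, and Pcsk1n, an inhibitor of Pcsk1, fell by 0.43.

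Among cytoskeletal genes the largest rises were those of Nefm, Vim and Nefl, which encode intermediate filaments. Nefm, the medium subunit of neurofilaments, had 1.875, 1.95 and 2.01 with BDNF_12h and -2.2, -1.97 and -1.81 with DMSO_12h, and rose by 3.94 ± 0.1 or 15.4-fold (adjusted p = 5.42e-17). The light subunit Nefl rose by 2.22 ± 0.11 (adjusted p = 1.59e-12) and the heavy subunit Nefh by 0.67, while internexin (Ina) was not called at -0.1. Vim, the filament of immature and glial cells, rose by 2.34 ± 0.075 (adjusted p = 1.07e-15), and the tropomyosin gene Tpm4 by 1.53 ± 0.091 (adjusted p = 2.22e-11). Of 41 cytoskeletal genes, 14 were higher and 12 lower. Those that fell included the neuronal tubulin Tubb3 (-0.49), tau (Mapt, -0.415) and the tubulin-binding stathmin Stmn1 (-0.35).

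Genes for making ribosomes were raised throughout, since 35 of 35 ribosome biogenesis genes were higher, with changes between 0.19 and 1.51 and a median of 0.639. The list mean was 0.528, 0.55 and 0.537 in the BDNF_12h arrays, against -0.154, -0.0849 and -0.0852 in the DMSO_12h arrays. Ddx21, a helicase that coordinates transcription and processing of ribosomal RNA, had 0.96, 1.04 and 0.92 with BDNF_12h and -0.62, -0.49 and -0.48 with DMSO_12h. It rose by 1.505 ± 0.061 (adjusted p = 4.45e-14). Rises were also measured for Utp20 of the small-subunit processome (1.13 ± 0.061, adjusted p = 5.27e-12), the nucleolar protein genes Rrp1b (1.1 ± 0.071, adjusted p = 7.84e-11) and Lyar (1.095 ± 0.059, adjusted p = 4.52e-12). The core proteins of box C/D ribonucleoproteins, Nop56, Nop58 and fibrillarin (Fbl), rose by 0.94, 0.88 and 0.64, and nucleolin (Ncl) and nucleophosmin (Npm1) by 0.46 and 0.445. Myc, a transcription factor known to drive such genes, rose by 0.49.

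Windows before the starts of Ddx21 and Nop58 are shown as members of this group, with TGACG on either strand in capitals. The Ddx21 window lies at chr10:62602299-62602548 on the minus strand and the Nop58 window at chr1:59684756-59685005 on the plus strand.
Ddx21: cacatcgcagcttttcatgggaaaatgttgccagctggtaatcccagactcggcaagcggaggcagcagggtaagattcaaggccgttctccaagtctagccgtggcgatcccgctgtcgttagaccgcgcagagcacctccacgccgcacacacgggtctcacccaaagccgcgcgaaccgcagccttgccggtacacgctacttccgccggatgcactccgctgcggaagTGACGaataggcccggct
Nop58: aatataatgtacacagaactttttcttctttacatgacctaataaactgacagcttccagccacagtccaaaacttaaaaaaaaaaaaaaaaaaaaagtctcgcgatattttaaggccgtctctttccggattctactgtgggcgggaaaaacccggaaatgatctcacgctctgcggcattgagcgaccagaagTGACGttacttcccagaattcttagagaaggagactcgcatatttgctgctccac
Of 29 ribosome biogenesis genes with a window, 15 held TGACG (51.7%, against 25.9% of the genes tested that have a window), 1 held the E-box CACGTG, a site for MYC (3.45%, against 8.73%), and none held the EGR motif GCGNGGGCG (8.59% of the genes tested).

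Ribosomal proteins and tRNA synthetases had smaller medians. Of 43 ribosomal protein genes, 14 were higher and 1 was lower, with a median of 0.077. The largest rises were in Rps25 (0.56 ± 0.057, adjusted p = 5.28e-08) and Rpl12 (0.555 ± 0.098, adjusted p = 7.91e-05). Of 19 tRNA synthetase genes, which load amino acids onto tRNA, 14 were higher and 2 were lower, with a median of 0.276. Rars had 0.68, 0.67 and 0.64 with BDNF_12h and 0.001, 0.069 and 0.073 with DMSO_12h, and rose by 0.62 ± 0.084 (adjusted p = 3.42e-06). Nars rose by 0.55 ± 0.046 (adjusted p = 3.2e-09) and Tars by 0.53 ± 0.096 (adjusted p = 0.000112), while Mars1 and Vars fell by 0.41 and 0.28. Of 38 genes of the ATF4 amino acid response and of endoplasmic reticulum stress, 22 were higher and 3 lower, with a median of 0.373. They included the serine synthesis enzymes Psph (0.72), Psat1 (0.615) and Phgdh (0.605), the amino acid transporter Slc7a1 (0.64), the stress hormone Stc2 (1.09 ± 0.13, adjusted p = 6.87e-07) and Ddit3, which encodes the factor CHOP (0.97 ± 0.11, adjusted p = 2.99e-07).

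**Figure D3:**
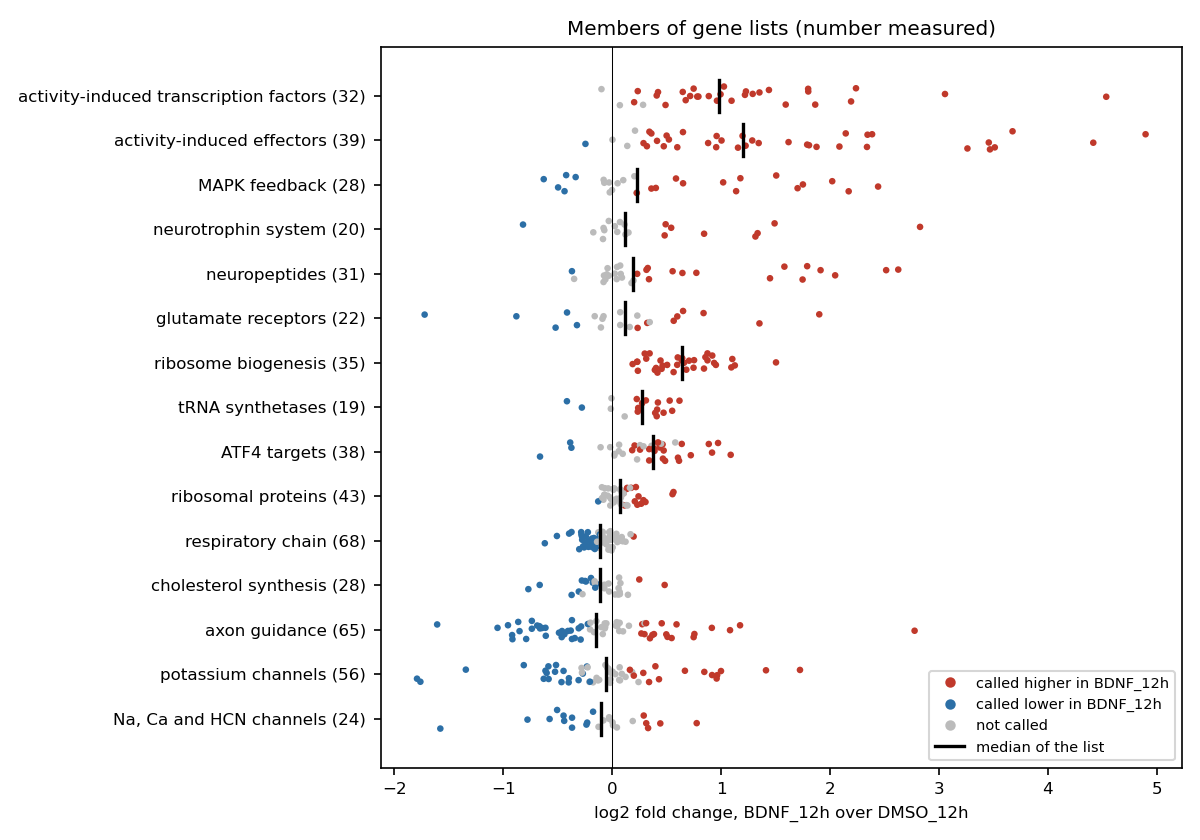
Each point is a member of a gene list, with its log2 fold change between BDNF_12h and DMSO_12h on the x axis, in red where called higher, blue where called lower and grey where not called; black bars are list medians and the number measured is in brackets. All 35 ribosome biogenesis genes lie right of 0, and 28 of 68 respiratory chain genes are blue.

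Receptor and channel families held members that rose and members that fell. Of 22 glutamate receptor genes, 8 were higher and 5 lower, with a median of 0.119, which was 0.186 without BDNF_12h replicate 1. Gria3, an AMPA receptor subunit, had 1.41, 1.55 and 1.58 with BDNF_12h and -0.21, -0.38 and -0.58 with DMSO_12h, and rose by 1.9 ± 0.14 (adjusted p = 5.78e-10). Gria2 rose by 0.6, Gria4 fell by 0.32, and Gria1 was not called at -0.1. The NMDA receptor subunits Grin2a and Grin3a rose by 0.65 and 0.84. Among metabotropic receptors Grm8 rose by 1.35 ± 0.1 (adjusted p = 5.52e-10), while Grm2 had -1.6, -1.43 and -1.455 with BDNF_12h and -0.08, 0.38 and 0.38 with DMSO_12h and fell by 1.72 (adjusted p = 5.26e-06). Grm3 fell by 0.88 (adjusted p = 4.59e-08).

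Of 44 postsynaptic genes, 14 were higher and 14 lower. Auxiliary proteins of AMPA receptors were among those that rose, Cnih3 by 1.92 ± 0.058 (adjusted p = 3.96e-16) and Shisa9 by 1.53 ± 0.083 (adjusted p = 4.76e-12). The scaffold Dlgap2 rose by 1.69 ± 0.15 (adjusted p = 1.01e-08). Homer1, a scaffold of metabotropic receptors, rose by 1.23 ± 0.057 (adjusted p = 4.46e-13), and its 6 probe sets ranged from 0.21 to 2.29. Subunits of the calcium kinase CaMKII moved apart, Camk2d rising by 0.94 and Camk2a, Camk2b and Camk2g falling by 0.4, 0.51 and 0.56. Of 44 presynaptic genes 10 were higher and 15 lower, with the priming factor Unc13b up by 0.94 ± 0.075 (adjusted p = 1.98e-09) and the synapsin Syn3 down by 0.98 (adjusted p = 6.06e-08).

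Of 18 inhibitory genes, 4 were higher (22.2%, near the 16.9% of all genes) and 4 lower (22.2%, near the 24.2% of all genes). The GABA-synthesising enzymes Gad2 and Gad1 rose by 1.265 ± 0.11 (adjusted p = 7.34e-09) and 0.44, the receptor subunit Gabrg3 rose by 0.77 ± 0.089 (adjusted p = 3.5e-07) and Gabrb1 fell by 0.75 (adjusted p = 1.47e-06).

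Of 56 potassium channel genes, 14 were higher and 19 lower. Kcna4, a rapidly inactivating channel, had 1.73, 1.65 and 1.62 with BDNF_12h and 0.01, -0.12 and -0.066 with DMSO_12h, and rose by 1.725 ± 0.11 (adjusted p = 5.37e-11). Kcnf1 rose by 1.41 ± 0.064 (adjusted p = 2.42e-13). For the large-conductance calcium-activated channel, the pore gene Kcnma1 rose by 0.85 and the accessory gene Kcnmb2 by 1.0, while the neuronal accessory gene Kcnmb4 had -1.46, -1.67 and -1.65 with BDNF_12h and 0.049, 0.27 and 0.28 with DMSO_12h and fell by 1.79 (adjusted p = 2.63e-14). Kcnip4, a calcium-binding partner of Kv4 channels, fell by 1.76 (adjusted p = 1.49e-09). Of 24 sodium, calcium and HCN channel genes, 5 were higher and 11 lower, with a median of -0.102. The T-type calcium channel Cacna1g fell by 1.58 (adjusted p = 1e-11), the sodium channel Scn1a by 0.78 (adjusted p = 4.96e-09) and the leak channel Nalcn by 0.57 (adjusted p = 4.4e-06).

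Regulators of G protein signalling, which speed the shut-off of G proteins, were mostly higher where they were called, with 9 of 19 higher and 1 lower. Rgs16 had 1.88, 1.91 and 1.77 with BDNF_12h and -0.96, -0.77 and -0.62 with DMSO_12h, and rose by 2.64 ± 0.115 (adjusted p = 1.48e-13). Rgs4 rose by 2.61 ± 0.17 (adjusted p = 8.42e-11) and Rgs7 by 1.56 ± 0.073 (adjusted p = 4.48e-13), and Rgs11 fell by 0.91. Without DMSO_12h replicate 1, the count of those higher was 6, and Rgs13 (1.39 ± 0.47, adjusted p = 0.0214) was at 1.17 with an adjusted p of 0.0937.

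Extracellular matrix and growth factor genes held further large rises. Of 59 matrix and protease genes, 19 were higher and 11 lower, with 7 lower when DMSO_12h replicate 1 was left out. Tnc, the matrix glycoprotein tenascin C, had 1.645, 1.4 and 1.43 with BDNF_12h and -0.38, -0.86 and -0.985 with DMSO_12h, and rose by 2.23 ± 0.19 (adjusted p = 5.2e-09). The perineuronal net proteoglycan aggrecan (Acan) rose by 1.93 ± 0.23 (adjusted p = 4.67e-07) and the protease inhibitor Timp1 by 1.44. In contrast the proteoglycans Vcan, Ncan and Bcan fell by 0.865, 0.45 and 0.44. Of 49 growth factors and cytokines, 13 were higher and 10 lower. Igf1 rose by 2.095 ± 0.13 (adjusted p = 5.69e-11), Vegfa by 1.06 ± 0.077 (adjusted p = 4.08e-10) and Wnt2 by 1.02 ± 0.115 (adjusted p = 2.72e-07), and Wnt4 fell by 0.95. Of 32 NF-kappaB and inflammatory genes, 6 were higher (18.8%, near the 16.9% of all genes), among them the chemokines Cxcl1 (0.51 ± 0.077, adjusted p = 1.27e-05) and Cxcl2 (0.72 ± 0.15, adjusted p = 0.000348), and 1, Il6, was lower (-0.45 ± 0.12, adjusted p = 0.00407). Without BDNF_12h replicate 1, or without DMSO_12h replicate 1, 4 of them were higher, and without the 2 arrays of other groups that stood apart, 10 were.

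Other genes outside the lists belonged to the 15 highest. Chrna1, the alpha subunit of the muscle nicotinic acetylcholine receptor, had 3.72, 3.69 and 3.64 with BDNF_12h and -0.072, -0.15 and -0.097 with DMSO_12h, and rose by 3.79 ± 0.13 or 13.8-fold (adjusted p = 4.02e-15). Man1a, a Golgi mannosidase that trims N-glycans, rose by 3.275 ± 0.076 (adjusted p = 1.24e-17). The secreted protein gene Cthrc1 rose by 3.27 ± 0.2 (adjusted p = 3.14e-11) and the diacylglycerol kinase gene Dgkk by 3.25 ± 0.09 (adjusted p = 9.46e-17). Hsf2bp, named for its binding to a heat shock factor, rose by 3.14 ± 0.12 (adjusted p = 2.26e-14), with its 2 probe sets at 1.82 and 4.46. The cell cycle inhibitor Cdkn1a rose by 2.14 ± 0.069 (adjusted p = 1.16e-15), and of 49 cell cycle genes 5 were higher and 13 lower (26.5%, near the 24.2% of all genes), among the lower the survivin gene Birc5 (-0.87 ± 0.13, adjusted p = 1.12e-05) and the replication helicase subunit Mcm7 (-0.65 ± 0.074, adjusted p = 3.08e-07).

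The genes that fell furthest were of mixed kinds. Arhgef26, an activator of the GTPase RhoG, had -1.29, -1.19 and -1.13 with BDNF_12h, against 1.22, 1.05 and 1.07 with DMSO_12h. Its change was -2.32 ± 0.094 (adjusted p = 4.34e-14), so that the DMSO_12h level was 4.98 times the BDNF_12h level. Ssbp2, a cofactor of LIM-domain transcription complexes, fell by 2.11 (adjusted p = 3.83e-11) with its 4 probe sets between -2.54 and -1.48. The zinc-finger gene Glis3 fell by 1.99 (adjusted p = 1.44e-07), the gap junction gene Gjc1 by 1.96 (adjusted p = 8.24e-13) and the embryonic myosin gene Myh3 by 1.93 (adjusted p = 5.98e-06). The others were Smim17 (-2.27), Armh4 (-2.05), Lemd1 (-1.92), Creg2 (-1.89), Ccdc85a (-1.82) and Fam181a (-1.78). Abca8a, an ABC transporter gene, fell by 1.87 (adjusted p = 0.0016), with DMSO_12h arrays at 1.75, 0.31 and -0.46.

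Genes that FOXO factors are known to activate moved both ways, with 11 of 29 higher and 12 lower and a median of -0.11, which was -0.053 without DMSO_12h replicate 1. FOXO proteins leave the nucleus when Akt phosphorylates them. Pik3ip1, an inhibitor of PI3 kinase, had -0.57, -0.86 and -0.59 with BDNF_12h and 1.19, 1.19 and 1.32 with DMSO_12h, and fell by 1.91 (adjusted p = 1.56e-11). The cyclin-like gene Ccng2 fell by 1.47 (adjusted p = 2.99e-08), catalase (Cat) by 1.2, Foxo3 itself by 1.12 and Txnip by 0.71. The members that rose included Cited2 (1.57 ± 0.11, adjusted p = 2.07e-10), the insulin receptor substrate Irs2 (1.3 ± 0.084, adjusted p = 8.6e-11) and Cdkn1b (0.54).

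Some clock output genes fell while part of the core clock rose. Of 21 clock genes, 7 were higher (33.3%, against 16.9% of all genes) and 6 lower (28.6%, near the 24.2% of all genes). Without BDNF_12h replicate 2 or 3 or DMSO_12h replicate 2, 4 were lower. The PAR-domain factor Dbp had -1.39, -1.28 and -1.22 with BDNF_12h and 0.017, 0.13 and 0.145 with DMSO_12h, and fell by 1.4 (adjusted p = 9.93e-10). Its relative Hlf fell by 0.98 (adjusted p = 5.53e-05) and Tef by 0.33. Nfil3, a repressor that binds the same sites, rose by 0.78 ± 0.18 (adjusted p = 0.00101), Cry1 by 0.51 and Per1 by 0.475.

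Some mitochondrial respiratory chain genes fell by small amounts. Of 68 genes, 28 were lower and 1 (Cyc1, 0.2) was higher, with a median of -0.106. Complex I subunits had the largest falls, Ndufa6 by 0.62 (adjusted p = 9.49e-09), Ndufa7 by 0.51 (adjusted p = 2.65e-06) and Ndufv3 by 0.39 (adjusted p = 2.59e-07). In cholesterol and fatty acid synthesis 11 of 28 genes were lower and 2 higher, with a median of -0.106, and 6 to 7 were lower without BDNF_12h replicate 1, BDNF_12h replicate 2 or DMSO_12h replicate 1. Mvd and Dhcr7, enzymes of sterol synthesis, fell by 0.77 (adjusted p = 1.28e-05) and 0.66 (adjusted p = 3.06e-06), while Msmo1 rose by 0.48 ± 0.075 (adjusted p = 1.96e-05).

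Axon guidance genes were called more often than all genes in both directions, with a median of -0.144. Of 65, 29 were lower (44.6%, against 24.2% of all genes) and 18 higher (27.7%, against 16.9%). Ephb6, an Eph receptor without kinase activity, had -1.125, -1.22 and -0.97 with BDNF_12h and 0.41, 0.54 and 0.545 with DMSO_12h, and fell by 1.605 (adjusted p = 5.94e-12). Among those that fell were also the ephrin Efnb3 (-1.05), the chemorepellent Draxin (-0.92) and the semaphorin receptor Nrp1 (-0.69). The largest rise was that of Sema3e, a secreted semaphorin, with 2.33, 2.46 and 2.48 in BDNF_12h and -0.42, -0.36 and -0.28 in DMSO_12h arrays. It rose by 2.78 ± 0.27 (adjusted p = 2.98e-08), and 4 of its 4 probe sets lay between 2.48 and 3.17. Rgma and Plxna4 rose by 1.175 ± 0.088 (adjusted p = 6.89e-10) and 1.08 ± 0.073 (adjusted p = 1.43e-10). Without DMSO_12h replicate 3 the median of the list was -0.093.

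Heat shock genes had 12 of 28 members higher (8 without BDNF_12h replicate 2) and 3 lower, with Hsf2 up by 0.63 ± 0.12 (adjusted p = 0.000221) and the chaperone Hspa4l down by 0.68 (adjusted p = 1.02e-07). Of 27 interferon-response genes none was higher and 5 were lower (18.5%, against 24.2% of all genes, and 3 without BDNF_12h replicate 1), among them Stat2 (-0.61 ± 0.086, adjusted p = 5.97e-06). Of 12 ID and HES genes, Id2 was higher (0.805 ± 0.088, adjusted p = 1.66e-07), and the Notch targets Hes5 and Hes6 were lower by 0.39 (adjusted p = 0.00375) and 0.385 (adjusted p = 0.000312).

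Cell type markers were examined because a culture of cortical neurons can hold other cells. Centred values do not show whether a marker was present or absent in these cultures. Of 16 pan-neuronal markers, 7 were higher and 6 lower. Rbfox3, which encodes NeuN, fell by 1.01 (adjusted p = 1.51e-12), and Elavl2 and Map2 rose by 0.64 ± 0.065 (adjusted p = 6.67e-08) and 0.55. Of 21 excitatory markers 4 were higher (19.0%, near the 16.9% of all genes) and 8 lower (38.1%, against 24.2%), with a median of 0.023. Those higher included Nrn1, named above among the effectors, and the deep-layer factor Fezf2 (1.14 ± 0.145, adjusted p = 1.42e-06). The upper-layer factor Cux2 fell by 1.0 (adjusted p = 1.77e-10), and its probe sets ranged from -1.96 to 0.069. A difference between layers was not tested. Of 24 interneuron markers 9 were higher (37.5%, against 16.9% of all genes) and 3 lower (12.5%, against 24.2%). Without DMSO_12h replicate 1, 6 were higher. Their changes ran from -0.65 in Dlx1 (adjusted p = 2.43e-07) to 1.26, with a median of 0.128.

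Of 19 astrocyte markers 2 were higher and 5 lower (26.3%, near the 24.2% of all genes), with a median of -0.226, which was -0.063 without DMSO_12h replicate 1. Their mean per array was -0.213, -0.16 and -0.127 with BDNF_12h, against 0.186, -0.113 and -0.133 with DMSO_12h, so that 1 DMSO_12h array stood above the other 5. Aqp4, the astrocyte water channel, had -0.39, -0.29 and -0.24 with BDNF_12h and 0.93, 0.16 and 0.086 with DMSO_12h. Its change of -0.695 ± 0.18 (adjusted p = 0.00272) was -0.427 without that array. Glutamine synthetase (Glul) went the other way and rose by 0.82 ± 0.068 (adjusted p = 3.46e-09). Of 14 progenitor markers 6 were higher and 2 lower, including Vim and Tnc named above. Of 15 oligodendrocyte markers 1 was higher and 2 lower, of 16 microglia markers 1 was higher (Cd68, a lysosomal protein, 1.115 ± 0.089, adjusted p = 1.9e-09) and 4 lower (25.0%), and of 17 vascular markers 2 were higher and 1 lower. No vascular marker was higher without BDNF_12h replicate 3, DMSO_12h replicate 1 or DMSO_12h replicate 2. The microglial complement genes C1qc and C1qb fell by 0.38 (adjusted p = 0.00135) and 0.315 (adjusted p = 0.00112). The part of other cells in the changes above was not tested.

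The response at 12 h was then set against that at 2 h, where 5068 genes were called (27.9%), 1781 higher (9.79%) and 3287 lower (18.1%). These comparisons share no arrays, and across genes, which are not independent replicates, their log2 fold changes had a Pearson correlation of 0.566. Of the 3067 genes higher at 12 h, 1071 (34.9%) were also higher at 2 h, 234 were lower and 1762 (57.5%) were not called there. The 1071 genes are 60.1% of those higher at 2 h. Of the 4396 genes lower at 12 h, 1972 (44.9%) were lower at 2 h, which is 60.0% of the genes lower at 2 h.

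The difference between the 12 h and the 2 h effect was tested itself, and 4518 genes (24.8%) were called, 2349 with a higher effect at 12 h (12.9%) and 2169 with a lower one (11.9%). Among the 3382 genes called at both times, 339 had opposite directions.

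With predicted and unnamed genes left out, late rises were led by Chrna1. It had -0.002, -0.235 and -0.081 in BDNF_2h arrays and 0.002, 0.057 and -0.15 in DMSO_2h arrays. Its change at 2 h was -0.076 (adjusted p = 0.737), and the 12 h effect exceeded it by 3.865 ± 0.19 (adjusted p = 9.21e-12). Man1a, at -0.061 at 2 h (adjusted p = 0.627), differed by 3.34 ± 0.11 (adjusted p = 2.14e-14). The kinase gene Gask1b, which rose by 3.03 ± 0.135 at 12 h, differed by 2.74 ± 0.19 (adjusted p = 1.66e-09). Larger effects at 12 h were also found for Dgkk (2.69 ± 0.13), the retinoic acid-degrading enzyme gene Cyp26b1 (2.67 ± 0.2), the cGMP-dependent kinase gene Prkg1 (2.645 ± 0.15), Gfra1 (2.57 ± 0.12) and Uaca (2.57 ± 0.16), with adjusted p between 7.28e-12 and 3.92e-09.

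Other genes had a lower effect at 12 h than at 2 h. Gadd45b, a stress-response gene, rose by 1.005 at 12 h and by 3.22 at 2 h, a difference of -2.21 ± 0.12 (adjusted p = 6.86e-11). The kinase gene Pim1 rose by 1.62 at 12 h and 3.705 at 2 h (difference -2.09 ± 0.12), and the antiproliferative gene Btg2 by 2.34 and 4.25 (difference -1.91 ± 0.2). The phosphatase Dusp14 and the chaperone Dnajb1 were not called at 12 h, at -0.077 and -0.025, and rose by 2.06 and 2.09 at 2 h, with differences of -2.14 ± 0.12 and -2.12 ± 0.079. Lemd1, Myh3 and Glis3, which fell at 12 h, were not called at 2 h, at 0.37, 0.33 and -0.047, with differences of -2.29 ± 0.39, -2.26 ± 0.39 and -1.94 ± 0.3.

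Members of 1 list did not share 1 time course. Of the 32 activity-induced transcription factors, 32 were higher at 2 h with a median of 1.45. The effect at 12 h was higher in 2 (6.25%, against 12.9% of all genes) and lower in 16 (50.0%, against 11.9%). Egr2 changed by 4.54 at 12 h and 4.5 at 2 h (difference 0.037 ± 0.18, adjusted p = 0.924), and Fos by 0.72 and 0.75 (difference -0.035 ± 0.1, adjusted p = 0.871). The effect on Egr1 was larger at 12 h than at 2 h by 0.45 ± 0.12 (adjusted p = 0.0081, and 0.0504 with the 4 groups compared alone), and that on Nr4a2 by 0.83 ± 0.078 (adjusted p = 1.04e-07). Of the 39 effectors, 15 had a lower (38.5%) and 8 a higher effect (20.5%) at 12 h. Arc changed by 4.42 at 12 h and 5.59 at 2 h (difference -1.17 ± 0.19, adjusted p = 9.05e-05), whereas Rasl11a changed by 4.9 and 2.62 (difference 2.28 ± 0.145, adjusted p = 4.17e-10) and Nrn1 by 3.68 and 2.08 (difference 1.6 ± 0.12, adjusted p = 6.37e-09).

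Of the 35 ribosome biogenesis genes, 31 had a higher effect at 12 h than at 2 h (88.6%, against 12.9% of all genes). At 2 h, 9 were higher (25.7%, against 9.79% of all genes) and 2 lower, with a median of -0.005. Utp20 was higher at 12 h (1.13) and lower at 2 h (-0.35), a difference of 1.48 ± 0.087 (adjusted p = 1.29e-10). The tRNA synthetase genes had a median of 0.007 at 2 h, and the 12 h effect was higher in 11 of 19 (57.9%) and lower in 1. Of the respiratory chain genes 1 was lower and 2 higher at 2 h, and the 12 h effect was lower in 12 of 68 (17.6%, against 11.9% of all genes). Glutamate receptor genes had 1 member higher and 1 lower at 2 h. Gria3 was at -0.255 there (adjusted p = 0.206), with a difference of 2.16 ± 0.2 (adjusted p = 7.78e-08). The guidance gene Rgma was higher at 12 h (1.175) and lower at 2 h (-0.52, difference 1.69 ± 0.12, adjusted p = 3.66e-09). Vgf (0.21 ± 0.37, adjusted p = 0.759), Npy (0.21 ± 0.22, adjusted p = 0.59) and Bdnf (-0.34 ± 0.37, adjusted p = 0.596) were not called for a difference between the times. Without DMSO_2h replicate 1, an array that stood apart from its group, Vgf (0.74, adjusted p = 0.00231) and Npy (0.471, adjusted p = 0.0365) were called, and Bdnf was at 0.196 and not called. Ntrk2 was, at -0.25 ± 0.078 (adjusted p = 0.0205), but not without DMSO_12h replicate 1 (-0.198, adjusted p = 0.07) or BDNF_12h replicate 2 (-0.22, adjusted p = 0.0631), nor without BDNF_2h replicate 1 or 3 or DMSO_2h replicate 2. With the median of its probe sets the difference for Ntrk2 was -0.116 (adjusted p = 0.377).

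**Figure D4:**
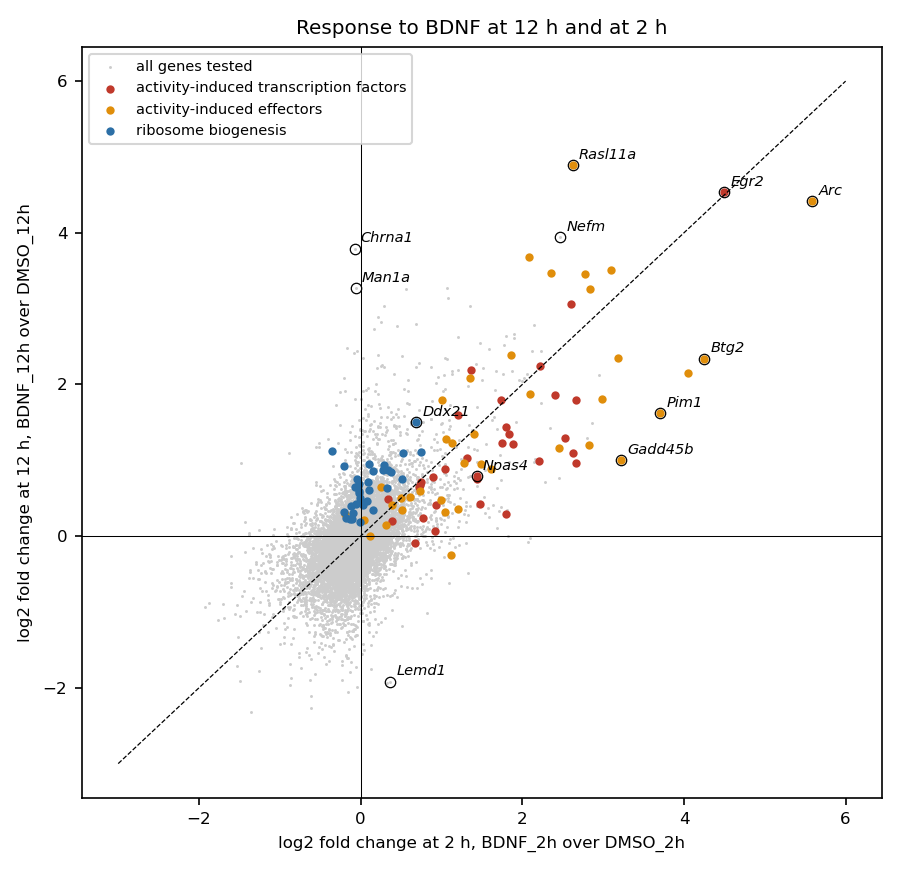
Each point is a gene, with its log2 fold change for BDNF over DMSO at 2 h on the x axis and at 12 h on the y axis; the dashed line marks equal changes, coloured points are members of 3 gene lists, and open circles mark the labelled genes. Ribosome biogenesis genes lie above the line near 0 on the x axis, Chrna1 and Man1a lie high above it, and Gadd45b, Pim1 and Btg2 lie below it.

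The last comparison asked how the 12 h response differed when BET proteins were inhibited. With IBET858 present, 7150 genes were called for BDNF_IBET858_12h over IBET858_12h (39.3%), 2923 higher (16.1%) and 4227 lower (23.2%), and the correlation across genes with the response without IBET858 was 0.695. Of the 3067 genes that BDNF raised without IBET858, 1863 (60.7%) were also raised with it, and of the 4396 lowered genes 2771 (63.0%) were also lowered. The difference of the effects, with IBET858 minus without, was called in 2946 genes (16.2%), 1628 higher (8.95%) and 1318 lower (7.24%). Of 4848 genes called in both, 214 had opposite directions. IBET858_12h replicate 3 stood apart from its group (standard deviation 0.157), and without it the difference was called in 2628 genes. Without both it and DMSO_2h replicate 1 there were 3549.

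Some rises were smaller with IBET858. Chrna1 had 0.74, 0.53 and 0.094 in BDNF_IBET858_12h arrays and -0.19, -0.35 and -0.12 in IBET858_12h arrays. Its response was 0.67 with IBET858, against 3.79 without, a difference of -3.115 ± 0.19 (adjusted p = 2.77e-10). Cyp26b1 responded by -0.22 with IBET858 (adjusted p = 0.224) and 2.89 without (difference -3.11 ± 0.2, adjusted p = 6.2e-10), and Cthrc1 by 0.37 (adjusted p = 0.156) and 3.27 (difference -2.9 ± 0.28, adjusted p = 3.53e-07). Gask1b (-2.57 ± 0.19, adjusted p = 6.56e-09) and the metallothionein gene Mt2 (-2.39 ± 0.13, adjusted p = 1.2e-10) had smaller responses too.

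Other genes responded more strongly with IBET858 present. Serpinb2 had 6.2, 6.01 and 6.16 in BDNF_IBET858_12h arrays and -1.205, -1.2 and -1.89 in IBET858_12h arrays. Its response was 7.56 with IBET858 and 3.51 without, a difference of 4.04 ± 0.25 (adjusted p = 3.28e-10). Tnc responded by 5.78 and 2.23 (difference 3.54 ± 0.27, adjusted p = 9.33e-09) and the vesicular glutamate transporter gene Slc17a6 by 3.385 and 1.2 (difference 2.19 ± 0.11, adjusted p = 4.63e-11). The Slc17a6 means with BDNF were close, at 0.865 in BDNF_IBET858_12h and 0.723 in BDNF_12h. Those without BDNF lay apart, at -2.52 in IBET858_12h and -0.474 in DMSO_12h. Ebi3, a cytokine subunit, rose by 2.31 with IBET858 and fell by 0.78 without (difference 3.09 ± 0.17, adjusted p = 1.08e-10). The xylosyltransferase gene Gxylt2 responded by 2.99 with IBET858 and was not called without, at 0.26 (difference 2.73 ± 0.18, adjusted p = 8.79e-10).

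Windows before the starts of Chrna1 and Serpinb2, which lay at opposite ends of this comparison, are shown with a window of Bdnf, the gene of the ligand. They lie at chr2:73580339-73580588 on the minus strand, chr1:107511173-107511422 on the plus strand and chr2:109676782-109677031 on the plus strand. Capitals mark TGANTCA, a loose form of the AP-1 motif that leaves the middle base open. The usual AP-1 site has C or G there. The base is C in Chrna1 and A in Serpinb2 and Bdnf.
Chrna1: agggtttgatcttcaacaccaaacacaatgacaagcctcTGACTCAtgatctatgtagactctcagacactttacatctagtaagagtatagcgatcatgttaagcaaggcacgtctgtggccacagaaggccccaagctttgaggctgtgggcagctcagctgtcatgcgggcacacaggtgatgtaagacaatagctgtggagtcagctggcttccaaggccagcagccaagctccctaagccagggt
Serpinb2: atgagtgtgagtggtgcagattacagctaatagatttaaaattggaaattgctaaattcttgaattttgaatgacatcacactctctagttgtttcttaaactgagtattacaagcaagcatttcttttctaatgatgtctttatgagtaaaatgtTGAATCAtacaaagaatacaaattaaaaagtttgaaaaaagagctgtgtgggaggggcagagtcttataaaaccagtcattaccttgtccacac
Bdnf: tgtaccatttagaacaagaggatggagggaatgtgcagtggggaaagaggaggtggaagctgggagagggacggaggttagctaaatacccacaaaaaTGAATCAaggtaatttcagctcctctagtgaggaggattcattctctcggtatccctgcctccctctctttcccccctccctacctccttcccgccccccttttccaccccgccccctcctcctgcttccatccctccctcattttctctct
Of the genes tested that have a window, 6.7% held TGANTCA with any middle base on either strand. The share was 8.37% of those called higher past 1.5-fold and 4.97% of those called lower past 1.5-fold.

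The lists followed neither course as a whole. Of the activity-induced transcription factors 9 had a lower (28.1%, against 7.24% of all genes) and 4 a higher effect with IBET858 (12.5%, against 8.95%). Of the effectors 12 had a lower (30.8%) and 13 a higher effect (33.3%). Egr2 (0.066 ± 0.18, adjusted p = 0.859), Fos (-0.23 ± 0.1, adjusted p = 0.144) and Npy (-0.34 ± 0.22, adjusted p = 0.349) were not called for a difference. Arc responded more with IBET858 by 0.78 ± 0.19 (adjusted p = 0.00717) and Egr1 less by 0.8 (adjusted p = 7.65e-05). The mean of Egr1 was -1.473 in IBET858_12h and -2.614 in DMSO_12h, against 0.779 in BDNF_IBET858_12h and 0.441 in BDNF_12h. For Vgf the difference was -0.95 ± 0.37 (adjusted p = 0.0845) and for Bdnf -0.95 ± 0.37 (adjusted p = 0.0899), and neither was called. Both were called at a similar size in 3 other settings: with array weights (adjusted p = 0.00763 for Vgf and 0.0141 for Bdnf), with the 4 groups compared alone (0.00651 and 0.00434), and without the 2 arrays that stood apart (0.000693 and 0.00102). Ntrk2 differed by 0.28 ± 0.078 (adjusted p = 0.0162), a call lost without DMSO_12h replicate 1 (0.228, adjusted p = 0.0542) or BDNF_12h replicate 2 (0.25, adjusted p = 0.0509). Of the ribosome biogenesis genes 12 had a lower (34.3%) and 1 a higher effect (2.86%), and 30 of 35 were still higher with BDNF_IBET858_12h than with IBET858_12h.

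**Figure D5:**
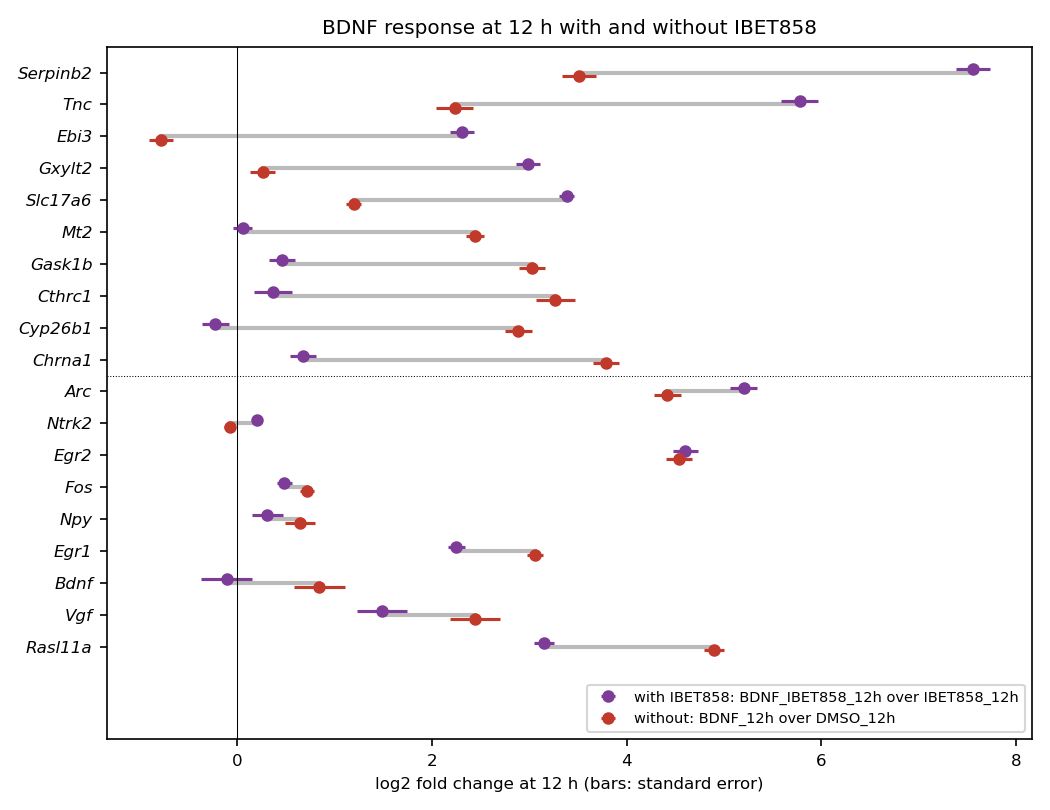
Log2 fold changes at 12 h for BDNF with IBET858 (purple) and without it (red), with bars for the standard error. Above the dotted line are the 5 genes with the highest and the 5 with the lowest difference, with predicted and unnamed genes left out. Below it are further named genes. Serpinb2 is at 7.56 with IBET858 and 3.51 without, and Chrna1 at 0.67 and 3.79.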

How the data were processed

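Total RNA was extracted with Trizol LS, and biotinylated cRNA was hybridised to Affymetrix arrays, per the labels' protocols. The deposited values are log2 intensities made with RMA, which corrects background, normalizes between arrays and summarises probes, per the submitters' processing notes. The base of the logarithm is taken from RMA, as the table gives none. All 45101 probe sets had a median of 0 over the 24 arrays (tolerance 1e-06), so levels, detection and a filter on dim probes could not be had.

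Gene symbols came from GEO's platform annotation, updated through RefSeq GRCm38.p6 (34754 probe sets matched). It lists 34958 probe sets with 1 symbol and 932 with several, and 9211 are not listed. A gene's value was the mean of its probe sets with 1 symbol, which gave 18193 genes, 9010 of them with several probe sets. limma 3.58.1 (R 4.3.3, lmFit and eBayes) was fitted to the 8 groups of 3 arrays with 16 residual degrees of freedom, and p-values were adjusted by Benjamini-Hochberg over all genes. The threshold for a call was an adjusted p of 0.05. Tables and figures used Python 3.11.15, pandas 2.3.3 and matplotlib 3.10.9, and the fit was tested on simulated data.

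Before any ranking, predicted and unnamed genes (Gm, Rik, LOC and accession-like names) were left out. The rule for named genes took the 15 highest and 15 lowest called genes whose arrays did not overlap at 12 h, the 8 highest and 8 lowest for the difference between times, and the 5 highest and 5 lowest for the difference with IBET858. It added up to 4 members of each list and Bdnf, Ntrk2, Arc, Fos, Egr1, Vgf and Npy, and further list members were chosen after their values were seen. The comparisons, the members and the 39 gene lists were chosen with earlier results of these data known. Equal replicate numbers were not treated as pairs in the main fit. The alternatives left out in turn each array of the groups compared, or used other summaries of probe sets, array weights or robust eBayes. Further ones shifted arrays to a median of 0, added a replicate block or fitted the compared groups alone.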

Additional observations from a re-analysis of the deposited data

Results flagged for a closer look

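Results are given here because the BDNF effect differed between sets of arrays by a test of the difference itself in limma, with p-values adjusted over all genes. The effect at 12 h differed from that at 2 h in 4518 genes, and the effect at 12 h with IBET858 differed from that without it in 2946 genes. Predicted and unnamed genes were left out of the rankings below.

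For 12 h minus 2 h, the highest differences were those of Chrna1 (3.87), Man1a (3.34), Gask1b (2.74), Dgkk (2.69), Cyp26b1 (2.67), Prkg1 (2.64), Gfra1 (2.57) and Uaca (2.57). The lowest were those of Lemd1 (-2.29), Myh3 (-2.26), Gadd45b (-2.21), Dusp14 (-2.14), Dnajb1 (-2.12), Pim1 (-2.09), Glis3 (-1.94) and Btg2 (-1.91).

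For the effect with IBET858 minus that without, the highest differences were those of the protease inhibitor gene Serpinb2 (4.04), the matrix gene Tnc (3.54), Ebi3 (3.09), Gxylt2 (2.73) and Slc17a6 (2.19). The lowest were those of the receptor gene Chrna1 (-3.12), Cyp26b1 (-3.11), Cthrc1 (-2.9), Gask1b (-2.57) and Mt2 (-2.39). Chrna1, Gask1b and Cyp26b1 were among the highest for time and the lowest for IBET858, and both differences use the same BDNF_12h and DMSO_12h arrays.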

How the results depend on the processing

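The number of genes called at 12 h was 7463, and leaving out in turn each array of the groups compared gave 6664 to 6993. For the difference between times it was 4518 (3956 to 5026), for the difference with IBET858 2946 (2322 to 3108), and 626 list members were called at 12 h (554 to 607). Testing each probe set gave 13421 called probe sets at 12 h, 7808 for time and 4881 for IBET858, against more features tested. Keeping genes with several probe sets gave 4577, 2794 and 1937, with fewer genes tested. Array weights gave 6778 for time, and the cause was not tested. Without DMSO_2h replicate 1 and IBET858_12h replicate 3, 8319, 5659 and 3549 genes were called. With the replicate block the counts were 7396, 4474 and 2854, and 7307 of the 7396 were also called without it. Whether equal numbers mark pairs is not known. Correlations of deviations from the group means lay between -0.153 and 0.065 for equal numbers and between -0.0785 and 0.143 for unequal ones. They show no sign of pairs, but with 3 arrays per group they cannot exclude them. Over 210 results for named genes and 3077 values in other settings, 3008 kept their side of the threshold, 48 lost a call and 21 gained one. No value that was called in either setting reversed. Values called in neither could change sign, as Bdnf did for time without DMSO_2h replicate 1. Calls were lost in some setting for 16 results, among them those of Bdnf, Ntrk2, Rgs13 and Egr1 given above, and those of Rps6 and Tyrobp without DMSO_12h replicate 1 (adjusted p = 0.0813 and 0.0748). Depth has no counterpart here: 3 arrays per group limit the precision.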

Other observations

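Probe sets of 1 gene can report different transcript ends. Of 9010 genes with several probe sets, 3114 had at least 2 that were called at 12 h, and in 342 of these they were called in opposite directions. With predicted and unnamed genes left out, probe sets passed 1.5-fold both ways in 10 genes. Of these, 9 are named here, chosen after their values were seen. The potassium channel gene Kcnq3 had probe sets at -0.709 and 1.195, the endocytosis gene Eps15 at -0.812 and 1.063, and the Ras activator gene Rasgrf1 at -0.668 and 0.949. The phosphatase gene Ptprk ranged from -0.912 to 0.611 and Mmd from -0.825 to 0.589. Gtdc1 ranged from -0.752 to 0.601, the microtubule-binding gene Map4 from -0.716 to 0.599, the deubiquitinase gene Usp15 from -0.62 to 0.621 and the acyltransferase gene Agpat5 from -0.606 to 0.612. For these genes the mean over probe sets does not describe a single transcript.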
